A study of Mus musculus with 11 samples.

Results

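The proteasome subunits and regulators were described in RNA from mouse KP1 cells, a small cell lung cancer (SCLC) line mutant for Rb and p53, grown as suspension culture. Members were all protein-coding genes whose symbols begin with Psma, Psmb, Psmc, Psmd, Psme, Psmf or Psmg, except the immunoproteasome subunits Psmb8, Psmb9 and Psmb10. This rule used no measured value and took 47 of 21868 protein-coding gene symbols, and 45 of the 47 had enough reads to be tested. The study used bulk RNA sequencing of irradiated cells in culture to ask how SCLC cells respond to radiotherapy. Its 5 bulk libraries were 2 of untreated cells (control, numbered 2 and 3) and 3 of cells collected 24 h after 5 Gy (irradiated, numbered 1 to 3), all of the same line in the same medium. The labels do not say whether libraries of a group came from separate cultures, so the p-values measure only the spread between these libraries. The 6 single-cell samples of the series came from tumors and were not analysed here.

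The proteasome is the protease that degrades proteins tagged with ubiquitin. Its barrel-shaped core particle (20S) is a stack of rings of alpha and beta subunits, and some beta subunits carry the catalytic sites inside the barrel. The regulatory particle (19S) caps the barrel. Its base holds the ATPases that unfold substrates and the scaffold and ubiquitin-binding subunits, and its lid holds the deubiquitinase that removes the ubiquitin chain. Activators of other kinds, PA28 and PA200, can bind the same barrel ends, and dedicated chaperones assemble core and base. Cells that lose proteasome activity are known to raise many of these genes together through the transcription factor Nfe2l1.

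The libraries held 21185956 to 31036317 estimated reads. The labelled cell type was checked first: all 10 neuroendocrine markers, Chga and Insm1 among them, had at least 3 reads in every library, with summed levels of 2800 to 3060 TPM. TPM is an abundance scaled for transcript length and to a fixed total in every library. Of the leukocyte markers 1 of 6 and of the fibroblast markers 1 of 6 reached 3 reads in every library. The leukocyte markers summed to 4.55 and 7.39 TPM in control and 2.38 to 4.31 TPM in irradiated libraries. The fibroblast markers summed to 57.0 and 67.4 TPM in control and 36.8 to 51.8 TPM in irradiated libraries, of which Pdgfra made 53.7 and 56.7 TPM in control and 36.6 to 51.7 TPM in irradiated libraries. Col1a1 was at 13.5 TPM in control library 2 and at most 0.104 TPM in the other 4, and Col3a1 was at 0 reads in every library. The Col1a1 values rest on few reads, 33 in control library 2 and 2 to 10 in the other 4. The part of such cells in the results was not tested. One property of whole libraries moved with the groups. Averaged over reads, the length of the transcripts was 5463 and 4729 bases in control libraries 2 and 3, against 3715, 3625 and 3998 bases in irradiated libraries 1 to 3. Control library 2 lay farthest out on this measure and on the first principal component of all genes, at -86.9, against -31.4 for control library 3 and 20.5 to 49.9 for the irradiated libraries. The genes called are therefore given both as fitted and with an offset that removes each library's trend on transcript length, and other genes as fitted unless said otherwise.

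More members were higher than lower after irradiation, and the parts of the proteasome were not alike. At a Benjamini-Hochberg adjusted p under 0.05 over 14099 genes (edgeR, quasi-likelihood), 23 of the 45 tested members rose, 1 fell and 21 did not pass. Of all genes tested, 12.7% rose and 13.0% fell. The median log2 fold change, irradiated over control, was 0.62 over the tested members and 0.02 over all genes tested. A log2 fold change above 0 was seen in 40 of the 45, against 51.1% of all genes. In 37 members every irradiated library lay above both controls and in 3 every irradiated library lay below both, against 30.1% and 29.3% of all genes. No member passed the study's thresholds, an adjusted p under 0.05 and a log2 fold change beyond 1.5 in either direction. Of all genes, 1.66% and 1.89% passed them upward and downward. Psmb11 lay at -1.51 but did not pass on adjusted p (edgeR adjusted p = 0.138). The count of members was also 0 by DESeq2, by limma on TPM and by edgeR at an unadjusted p under 0.05. In bulk RNA, a change in the amount of RNA per cell and a change in the share of cells that hold it cannot be told apart.

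The core particle accounted for most of the calls. Of its 16 genes 15 were tested, 13 rose, none fell, and the median log2 fold change was 0.81, or 1.75-fold. The base had 9 genes by the symbol rule, none of which passed edgeR's test in either direction, with a median of 0.21. At an unadjusted p under 0.05, 4 base genes were higher and 1 lower, DESeq2 called 2 higher and 1 lower, and limma on TPM called 0 higher and 1 lower. Of the 8 lid genes by the same rule 2 rose and 6 did not pass, with a median of 0.30. The rule leaves out subunits with other names, among them Sem1 of the lid and the ubiquitin receptor Adrm1 of the base. Both rose as fitted, at 1.56 and 0.88 (edgeR adjusted p = 0.0108 and 0.019), and are given below with the genes around the proteasome. The 4 tested activators split, with 2 higher, 1 lower and 1 that did not pass. The chaperones that assemble the core had the highest median of any part, 1.07, with 3 of 4 risen. The groups of genes were not tested against each other, and these counts and medians are descriptions.

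**Figure D1:**
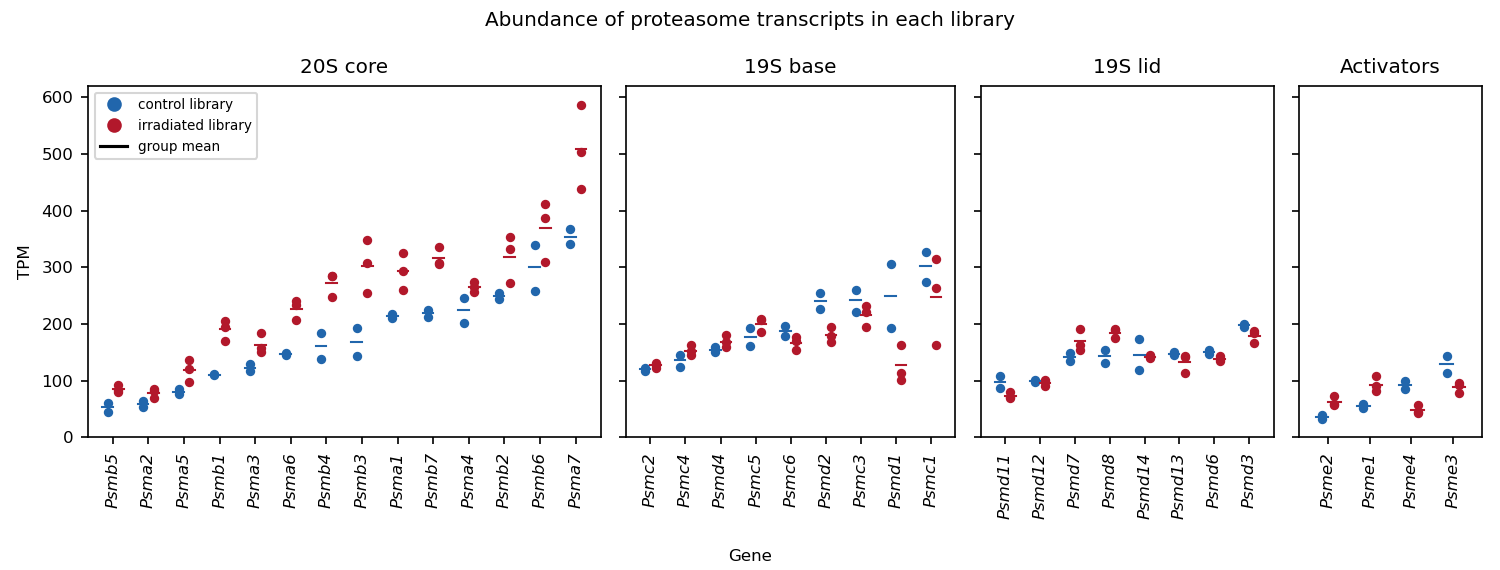
Abundance (TPM, vertical axis) of each gene of the core, base, lid and activators in each of the 5 libraries, with genes ordered within a panel by control mean. Points are libraries (2 control in blue, 3 irradiated in red), short lines are group means, and genes under 1 TPM or at 0 are left out. In 14 core genes the irradiated mean lies above the control mean, and among the genes with higher control means are Psmd1, Psme3 and Psme4.

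Because TPM is scaled for length, it allows levels to be compared between genes. It does not remove a library's own trend on transcript length, so sums and ratios of TPM can carry that trend. The core genes summed to 2449 and 2486 TPM in control libraries 2 and 3 and to 3635, 3772 and 3131 TPM in irradiated libraries 1 to 3. The base summed to 1898 and 1723 TPM in control and to 1471, 1582 and 1714 TPM in irradiated libraries. Core sums thus did not overlap between the groups and were higher after irradiation. Base sums did not overlap and were lower, narrowly so between control library 3 and irradiated library 3. The base ATPases alone summed to 1180 and 1150 TPM in control and to 1020, 1130 and 1190 TPM in irradiated libraries, which overlap. The base sum also holds Psmd1, at 306 and 193 TPM in control and 114, 102 and 163 TPM in irradiated libraries. The lid summed to 1125 and 1125 TPM in control and to 1161, 1073 and 1123 TPM in irradiated libraries, which overlap. The ratio of core to base plus lid was 0.81 and 0.873 in control and 1.38, 1.42 and 1.10 in irradiated libraries. TPM is itself a share of a fixed total, and the median of all genes on the log2(TPM + 1) scale lay at -0.26, so a base median of -0.16 and a lid median of -0.08 on that scale both lay above the median gene. By limma on this scale 10 members rose and 2 (Psmd1 and Psme4) fell, against 5.68% and 20.8% of all genes, and the core median was 0.52.

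Core subunits are needed in equal numbers per particle, yet their transcripts differed in level. In control cells the 14 constitutive core genes ranged from a mean of 52.9 TPM for Psmb5 to 354 TPM for Psma7, a 6.69-fold range, with a median of 166 TPM. After irradiation the range was 79.0 TPM (Psma2) to 509 TPM (Psma7), 6.44-fold, and the median 269 TPM. The base was more even, from 120 TPM (Psmc2) to 302 TPM (Psmc1) in control cells, a 2.50-fold range, and so was the lid, from 97.2 TPM (Psmd11) to 198 TPM (Psmd3), 2.04-fold.

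All 7 tested alpha subunits, which form the outer rings and the gate of the barrel, rose, with log2 fold changes of 0.51 to 0.91. Psma6 had 60.7 and 60.1 CPM (reads scaled to library size with the TMM factor) in control libraries 2 and 3 and 115, 125 and 98.6 CPM in irradiated libraries 1 to 3. All irradiated libraries lay above both controls, and Psma6 rose 1.87-fold (log2 fold change 0.91 ± 0.16, standard error, edgeR adjusted p = 0.00984). Psma5 had 37.7 and 43.5 CPM in control and 75.5, 90.2 and 58.9 CPM in irradiated libraries. It rose 1.84-fold (log2 0.88 ± 0.20, edgeR adjusted p = 0.0187). Irradiated library 3 was the lowest of its group for both genes, as it was for 6 of the 7 alpha genes. The smallest changes of the ring were those of Psma3 and Psma4. Psma3 had 66.1 and 69.6 CPM in control and 105, 126 and 95.2 CPM in irradiated libraries (log2 0.68 ± 0.17, edgeR adjusted p = 0.0232). Psma4 had 96.3 and 103 CPM in control and 133, 155 and 137 CPM in irradiated libraries (log2 0.51 ± 0.15, edgeR adjusted p = 0.0385). In both genes the groups did not overlap. With the length offset the calls of Psma6, Psma5 and Psma4 were lost, at 0.23 ± 0.15, 0.26 ± 0.14 and -0.13 ± 0.14 (edgeR adjusted p = 0.361, 0.274 and 0.572). Psma1 and Psma7, also called as fitted, lay at 0.11 ± 0.14 and 0.10 ± 0.19 (edgeR adjusted p = 0.640 and 0.768). Psma3 lay just outside the threshold, at 0.62 ± 0.15 (edgeR adjusted p = 0.0545), and Psma2 kept its call, at 0.82 ± 0.18 (edgeR adjusted p = 0.042). Psma8, a testis-specific alpha subunit, had 2 reads in irradiated library 1 and 0 reads in the other 4, under the floor of 3 reads, and was not tested.

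Of the beta subunits 6 of 8 rose, and the ring had a median log2 fold change of 0.86. Psmb3 and Psmb4, which are structural subunits without catalytic activity, had the highest changes. Psmb3 (GRCm38, chr11:97703399-97713500, plus strand) had 38.8 and 50.7 CPM in control and 96.1, 114 and 77.4 CPM in irradiated libraries, a mean of 44.8 ± 8.42 against 95.8 ± 18.3 CPM (SD, n = 2 and n = 3). It rose 2.14-fold (log2 1.10 ± 0.21, edgeR adjusted p = 0.0114). Psmb4 (chr3:94884093-94886961, minus strand) had 61.0 and 77.5 CPM in control and 150, 169 and 125 CPM in irradiated libraries, and it also rose 2.14-fold (log2 1.09 ± 0.19, edgeR adjusted p = 0.00943). With the length offset Psmb3 lay at 0.41 ± 0.13 and Psmb4 at 0.47 ± 0.12, and neither passed (edgeR adjusted p = 0.0942 and 0.0639). As fitted, the lowest irradiated library of both was above the highest control by more than the control libraries differed.

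The 3 catalytic subunits of the constitutive core gave different calls. Psmb5 carries the chymotrypsin-like activity and is the main target of proteasome inhibitor drugs. It had the lowest mean TPM in control cells of the 14 constitutive core genes. In control library 2 alone Psma2 lay lower, at 53.8 TPM against 60.8 TPM for Psmb5. Psmb5 had 20.6 and 14.8 CPM in control and 31.3, 37.3 and 31.7 CPM in irradiated libraries (log2 0.92 ± 0.20, edgeR adjusted p = 0.0169). Psmb7, with the trypsin-like activity, had 109 and 99.3 CPM in control and 177, 202 and 169 CPM in irradiated libraries (log2 0.81 ± 0.15, edgeR adjusted p = 0.0111). With the length offset Psmb5 lay at 0.19 ± 0.24 and Psmb7 at 0.16 ± 0.16, and neither passed (edgeR adjusted p = 0.637 and 0.564), nor did Psmb2, a structural subunit, at -0.06 ± 0.15 (edgeR adjusted p = 0.818). Psmb6, with the caspase-like activity, had 94.9 and 69.9 CPM in control and 128, 141 and 98.2 CPM in irradiated libraries. Its groups did not overlap, but the gap between its lowest irradiated and highest control library was small beside the spread of the controls, and it did not pass the test (log2 0.57 ± 0.21, edgeR adjusted p = 0.0735). Psmb11, the catalytic subunit of the thymus-specific proteasome, was near the floor, with 39 and 57 reads in control and 7, 10 and 30 reads in irradiated libraries (log2 -1.51 ± 0.69, edgeR adjusted p = 0.138). The sum of core TPM contains at most 1.01 TPM of it. Of the inducible counterparts of the catalytic subunits, used by the immunoproteasome after interferon signalling, Psmb8 and Psmb9 were near absent. Psmb8 had at most 3 reads and Psmb9 at most 1 read in any library. Psmb10 had 119 and 119 reads in control and 166, 186 and 159 reads in irradiated libraries (log2 0.69 ± 0.30, edgeR adjusted p = 0.117).

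Promoter sequence is shown for 3 beta genes, chosen because one of them had the highest change of the core (Psmb3) and the others, both catalytic, hold a match to the core of the antioxidant response element, the motif that Nfe2l1 and its relative Nfe2l2 are known to bind (Psmb5 and Psmb6). The sequences are from RefSeq on GRCm38.p6, run 5′ to 3′ on the gene's own strand, and start 250 bases before the RefSeq transcription start. They stop before the first base of the most-read GENCODE transcript where that lies upstream of the RefSeq start. Capitals mark CCAAT, the CCAAT box, or TGACNNNGC, the element core.
Psmb3, chr11:97703184-97703398, plus strand: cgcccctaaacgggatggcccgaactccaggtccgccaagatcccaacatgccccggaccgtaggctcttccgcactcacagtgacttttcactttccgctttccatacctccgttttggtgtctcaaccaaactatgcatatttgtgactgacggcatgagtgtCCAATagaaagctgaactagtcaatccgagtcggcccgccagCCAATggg
Psmb5, chr14:54618023-54618245, minus strand: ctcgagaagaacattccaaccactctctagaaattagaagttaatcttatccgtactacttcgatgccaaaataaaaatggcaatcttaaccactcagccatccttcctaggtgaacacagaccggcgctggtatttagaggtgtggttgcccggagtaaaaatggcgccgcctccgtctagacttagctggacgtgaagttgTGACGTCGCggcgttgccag
Psmb6, chr11:70525107-70525356, plus strand: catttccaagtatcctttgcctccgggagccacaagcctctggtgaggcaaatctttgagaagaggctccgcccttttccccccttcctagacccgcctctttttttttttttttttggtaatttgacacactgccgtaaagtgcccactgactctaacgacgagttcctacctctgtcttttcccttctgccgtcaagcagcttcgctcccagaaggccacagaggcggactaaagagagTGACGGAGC
Promoter entries matched 39 of the 47 members, in 42 windows. On both strands of the 250 bases before the start, TGACNNNGC was found in 5 of the 42 windows (11.9%), those of Psmb5, Psmb6, Psmc6, Psmd9 and Psmd12, against 10.2% of 32851 windows of all genes. CCAAT was found in 14 of 42 (33.3%) against 33.8% of all windows. The shares among members were thus close to those among all promoters for both motifs, and a match is a description of letters, not of binding. Of the 5 members with the element core, Psmb5 and Psmd9 rose and Psmb6, Psmc6 and Psmd12 did not pass the test.

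In the base, the 6 ATPases that thread substrates into the core had log2 fold changes of 0.01 to 0.46 and none passed. The highest were Psmc4 and Psmc5. Psmc4 had 77.6 and 88.2 CPM in control and 114, 126 and 103 CPM in irradiated libraries (log2 0.46 ± 0.16, edgeR adjusted p = 0.0601). Psmc5 had 92.3 and 107 CPM in control and 126, 149 and 135 CPM in irradiated libraries (log2 0.46 ± 0.15, edgeR adjusted p = 0.0577). The groups did not overlap in either gene, and both genes lay just outside the threshold. The scaffold subunits of the base, Psmd1 and Psmd2, to which substrates and shuttle factors dock, had the lowest changes. Psmd1 (chr1:86064387-86139151, plus strand) had 476 and 288 CPM in control and 210.0, 199 and 286 CPM in irradiated libraries. The 2 controls differed from each other by more than control library 3 differed from any irradiated library, and the test was not passed (log2 -0.72 ± 0.24, edgeR adjusted p = 0.0608). By DESeq2 and by limma on log2(TPM + 1) Psmd1 did pass as lower (adjusted p = 0.0181 and 0.0376). Its value rested on the choice of control, at -0.30 without control library 2 (edgeR adjusted p = 0.438) and -1.02 without control library 3 (edgeR adjusted p = 0.0142). Psmd2 had 371 and 321 CPM in control and 315, 311 and 325 CPM in irradiated libraries, which overlap (log2 -0.13 ± 0.15, edgeR adjusted p = 0.559). The ubiquitin receptor Psmd4 had 91.2 and 84.9 CPM in control and 108, 126 and 108 CPM in irradiated libraries (log2 0.37 ± 0.15, edgeR adjusted p = 0.0966).

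In the lid, Psmd8 and Psmd7, both structural subunits, rose. Psmd8 had 80.9 and 88.8 CPM in control and 140.0, 131 and 132 CPM in irradiated libraries (log2 0.66 ± 0.14, edgeR adjusted p = 0.0149). Psmd7, the partner of the deubiquitinase, had 95.1 and 103 CPM in control and 163, 147 and 126 CPM in irradiated libraries (log2 0.56 ± 0.16, edgeR adjusted p = 0.0383). In both, every irradiated library lay above both controls. Neither passed with the length offset, at 0.11 ± 0.15 for Psmd8 and 0.07 ± 0.15 for Psmd7 (edgeR adjusted p = 0.671 and 0.802). The deubiquitinase itself, Psmd14, had 91.9 and 74.4 CPM in control and 118, 117 and 110.0 CPM in irradiated libraries and lay just outside the threshold (log2 0.47 ± 0.15, edgeR adjusted p = 0.0553). At the low end, Psmd3 had 207 and 192 CPM in control and 231, 214 and 216 CPM in irradiated libraries (log2 0.15 ± 0.14, edgeR adjusted p = 0.474). Psmd11 had 102 and 131 CPM in control and 97.9, 105 and 105 CPM in irradiated libraries, within which control library 2 lay (log2 -0.18 ± 0.16, edgeR adjusted p = 0.414).

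**Figure D2:**
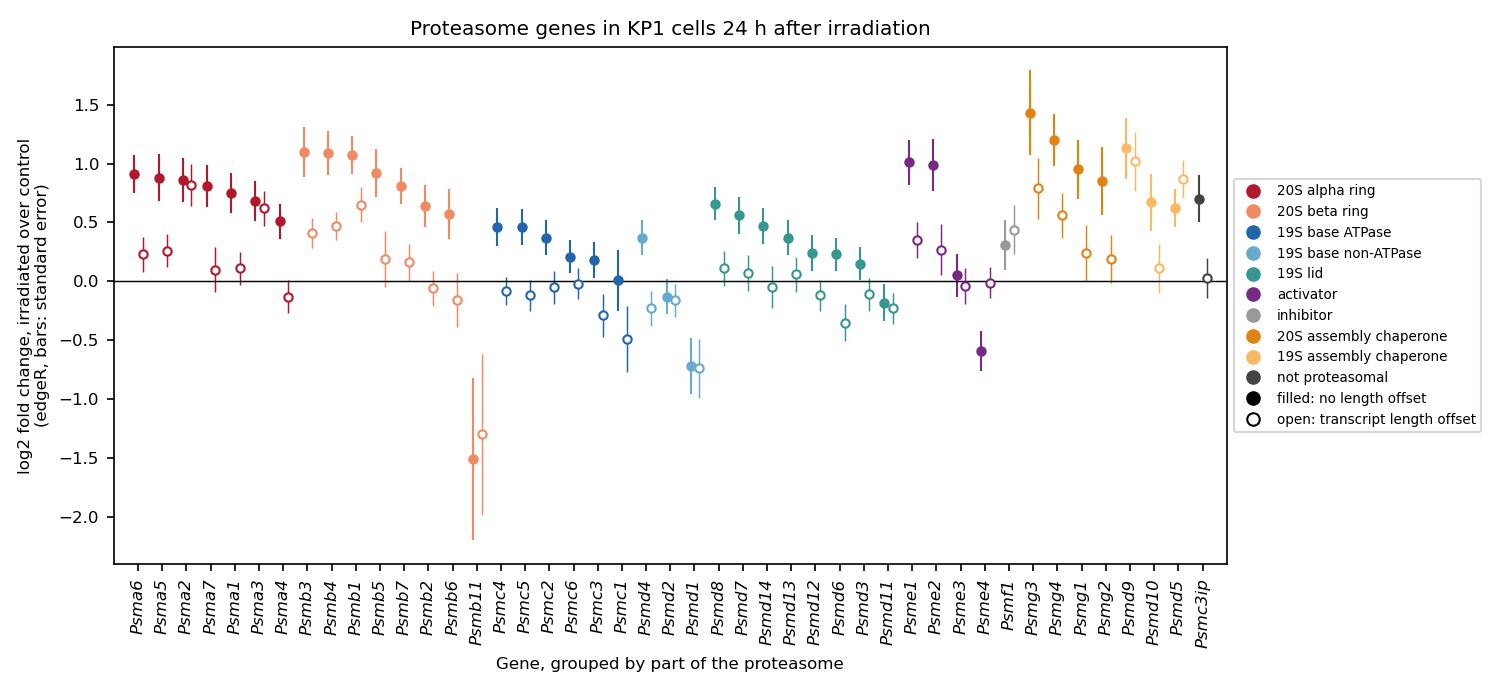
Log2 fold change, irradiated over control, of the 45 tested members (vertical axis, bars are standard errors from edgeR), grouped by part of the proteasome. Filled points are as fitted and open points carry the transcript length offset. The filled points of the alpha ring lie at 0.51 to 0.91 and those of the base at -0.72 to 0.46, and most open points lie closer to 0.

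The activators moved in both directions. PA28 alpha (Psme1) and PA28 beta (Psme2), the interferon-inducible subunits of a ring that opens the core without ATP, lie close to each other on mouse chromosome 14. Psme1 (chr14:55578123-55581529, plus strand) had 24.0 and 26.0 CPM in control and 43.7, 60.9 and 46.2 CPM in irradiated libraries, and rose 2.01-fold (log2 1.01 ± 0.19, edgeR adjusted p = 0.0113). Psme2 (chr14:55587441-55591113, minus strand) had 14.5 and 11.6 CPM in control and 23.7, 31.2 and 22.9 CPM in irradiated libraries, and rose 1.98-fold (log2 0.99 ± 0.22, edgeR adjusted p = 0.0169). In both, irradiated library 2 was the highest of the 5. PA28 gamma (Psme3), a nuclear relative that forms its own ring, had 113 and 148 CPM in control and 118, 149 and 139 CPM in irradiated libraries, which overlap (log2 0.05 ± 0.18, edgeR adjusted p = 0.852). PA200 (Psme4, chr11:30771726-30880361, plus strand), a large nuclear activator known for degrading acetylated histones, had 322 and 254 CPM in control and 181, 178 and 214 CPM in irradiated libraries. By this test it was the only member to fall (log2 -0.59 ± 0.17, 0.663-fold, edgeR adjusted p = 0.0361), and its groups did not overlap. On the TPM scale, the ratio of Psme1 to Psme4 was 0.526 and 0.683 in control and 1.80, 2.51 and 1.56 in irradiated libraries. This ratio sets a transcript of 1112 bases against one of 6491 bases, and TPM does not remove the libraries' trend on length. With the length offset neither gene passed, Psme1 at 0.35 ± 0.15 and Psme4 at -0.01 ± 0.13 (edgeR adjusted p = 0.184 and 0.960). Psme2b, a near copy of Psme2 with 99.4% identity over 794 bases, had 0 reads in all 5 libraries and was not tested. The inhibitor Psmf1 had 58.0 and 56.3 CPM in control and 91.3, 58.1 and 62.7 CPM in irradiated libraries, with irradiated library 1 apart from the other 4 (log2 0.31 ± 0.21, edgeR adjusted p = 0.300).

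Among the chaperones that build the core's alpha ring, Psmg3 had the highest fold change of all members. Psmg3 (chr5:139823592-139826885, minus strand) had 4.27 and 9.68 CPM in control and 16.9, 23.2 and 16.4 CPM in irradiated libraries, and rose 2.70-fold (log2 1.43 ± 0.36, edgeR adjusted p = 0.0240). Control library 2 was well below control library 3, the widest relative spread between controls among the chaperones. Psmg3 lay past the log2 threshold of 1.5 in some alternative fits, at 2.16 without control library 3 and at 1.53 without irradiated library 3. It lost its call without control library 2, at 0.98 (edgeR adjusted p = 0.0877), and with the length offset, at 0.79 ± 0.26 (edgeR adjusted p = 0.0963). Its partner Psmg4 had 8.44 and 8.78 CPM in control and 19.7, 23.1 and 16.5 CPM in irradiated libraries (log2 1.20 ± 0.22, edgeR adjusted p = 0.0108). Psmg1 had 10.7 and 8.37 CPM in control and 17.4, 22.9 and 15.1 CPM in irradiated libraries (log2 0.95 ± 0.25, edgeR adjusted p = 0.0281). Psmg2, which pairs with Psmg1, had 11.5 and 17.4 CPM in control and 27.7, 32.0 and 18.2 CPM in irradiated libraries and did not pass (log2 0.85 ± 0.29, edgeR adjusted p = 0.0615). In all 4 the groups did not overlap and irradiated library 2 was the highest. Psmg4 and Psmg1 also lost their calls under the length offset, at 0.56 ± 0.19 and 0.24 ± 0.24 (edgeR adjusted p = 0.109 and 0.545).

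The chaperones of the base gave 2 risen genes of 3. Psmd9 had 17.9 and 24.0 CPM in control and 59.5, 43.9 and 33.5 CPM in irradiated libraries (log2 1.13 ± 0.26, edgeR adjusted p = 0.0197). Psmd5 (chr2:34849734-34874968, minus strand) had 37.2 and 45.4 CPM in control and 62.7, 68.3 and 58.9 CPM in irradiated libraries (log2 0.62 ± 0.16, edgeR adjusted p = 0.0271). Psmd10 (gankyrin) had 7.46 and 7.77 CPM in control and 12.1, 14.1 and 10.2 CPM in irradiated libraries and did not pass (log2 0.67 ± 0.24, edgeR adjusted p = 0.0689). One member of the symbol rule is no proteasome gene: Psmc3ip encodes Hop2, a recombination factor named for binding Psmc3. It had 13.4 and 14.7 CPM in control and 23.7, 25.6 and 19.2 CPM in irradiated libraries (log2 0.70 ± 0.20, edgeR adjusted p = 0.0374, and 0.03 ± 0.17 with the offset, adjusted p = 0.937). Between 57.3% and 71.1% of its reads in each library were assigned to transcripts annotated as noncoding, mostly a retained intron.

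**Figure D3:**
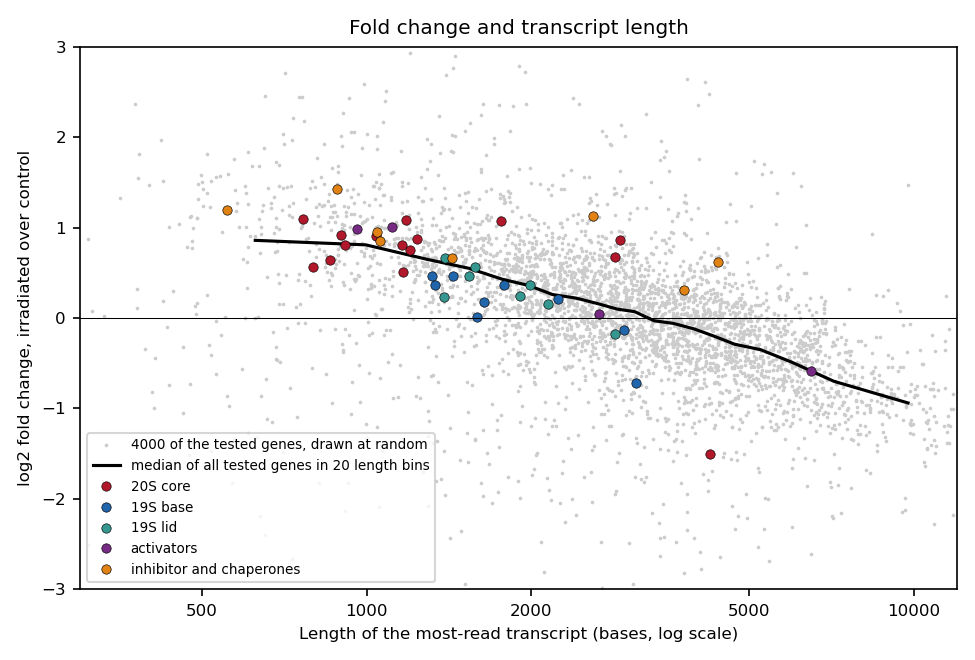
Log2 fold change, irradiated over control (vertical axis), against the length in bases of the gene's most-read transcript (log axis). Grey points are 4000 of the tested genes drawn at random, the line joins the medians of all tested genes in 20 length bins, colored points are proteasome members other than Psmc3ip, and genes beyond the axes are not drawn. The line falls from 0.86 to -0.94, and most core genes lie in its short-transcript part.

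Transcript length moved with these changes. Over all 14099 genes the correlation of log2 fold change with log2 length of the most-read transcript was -0.43 (Pearson's r, a description across genes, which share the same 5 libraries), and over the 45 tested members it was -0.68. Genes of 830 to 1151 bases had a median log2 fold change of 0.81, those of 1419 to 1656 bases 0.55, those of 2757 to 2981 bases 0.10, and those of 6521 to 8037 bases -0.70. The median transcript length was 1165 bases in the core, 1636 in the base and 1742 in the lid, and 963 bases in the core chaperones. Psme4, the member that fell, has the longest transcript of all members, 6491 bases. Among core, base and lid, the core thus had both the shortest transcripts and the highest median, and the part of length in the differences between these groups was not tested.

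With the transcript length offset, 3 members rose and none fell (9 and 1 at an unadjusted p under 0.05), against 2.7% and 2.04% of all genes by the same edgeR test, and the member median was 0.07 against 0.04 over all genes. Medians were 0.19 in the core, -0.16 in the base, -0.08 in the lid, 0.13 in the activators and 0.40 in the core chaperones. In the core 11 of 15 log2 fold changes stayed above 0, and in the base 0 of 9 did, where 53.4% of all genes lay above 0. Psme4 lay at -0.01 ± 0.13 (edgeR adjusted p = 0.960), and Psme1 and Psme2 at 0.35 ± 0.15 and 0.27 ± 0.22 (edgeR adjusted p = 0.184 and 0.461). Psmd1 lay at -0.72 as fitted and at -0.74 ± 0.25 with the offset (edgeR adjusted p = 0.110), and under the offset at -0.25 without control library 2 and -1.06 without control library 3 (edgeR adjusted p = 0.555 and 0.0282). The offset subtracts each library's length trend over all genes, so it also removes any response to irradiation that follows length.

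The 3 members that rose under both fits were Psma2, Psmb1 and Psmd5, of which Psma2 and Psmb1 are singled out here after their values were seen. Psma2 (chr13:14613240-14674236, plus strand), an alpha subunit, had 66.1 and 69.1 CPM in control and 124, 145 and 98.7 CPM in irradiated libraries (log2 0.86 ± 0.19, edgeR adjusted p = 0.0157 as fitted, and 0.82 ± 0.18, adjusted p = 0.0420 with the offset). Psmb1 (chr17:15475021-15499751, minus strand), a structural beta subunit, had 89.4 and 88.2 CPM in control and 200, 200 and 159 CPM in irradiated libraries, and its control mean of 88.8 ± 0.894 CPM stood against 186 ± 23.6 CPM (SD, n = 2 and n = 3). Its log2 fold change was 1.07 ± 0.16 as fitted (edgeR adjusted p = 0.00902) and 0.65 ± 0.15 with the offset (adjusted p = 0.0475). Psmd5 lay at 0.62 as fitted and at 0.87 ± 0.16 with the offset (edgeR adjusted p = 0.0346). With the offset on read-weighted length all 3 kept their calls. With the offset and without control library 2, Psma2, Psmb1 and Psmd5 lay at 0.86, 0.81 and 0.75. Without control library 3 they lay at 0.82, 0.56 and 1.06. Psma2 and Psmb1 lost their calls in both of these, and Psmd5 did without control library 2. Adding library number as a term to the offset fit took away all 3 calls. The values were then 0.77 ± 0.22, 0.58 ± 0.21 and 0.86 ± 0.22 (edgeR adjusted p = 0.15, 0.22 and 0.125). TPM divides by each transcript's length but does not take out a library's own trend on length, as the offset does. By limma on log2(TPM + 1) Psmb1 passed (0.78, adjusted p = 0.0182), and Psma2 and Psmd5 did not (0.40 and 0.58, limma adjusted p = 0.137 and 0.0513). Their most-read transcripts, of 2911, 1758 and 4397 bases, were longer than the core median. Psma3, with 2846 bases, and Psmd9, with 2597 bases, lay just outside the threshold with the offset, at 0.62 ± 0.15 and 1.02 ± 0.25 (edgeR adjusted p = 0.0545 and 0.0543). For Psma3 that transcript held 44.2% to 55.2% of the gene's reads in each library, and the others with reads were shorter. The length used for Psma3 thus holds for only a part of its reads. Of the members of length near that of Psma2 and Psma3, Psmd11 (2848 bases), Psmd2 (2961 bases) and Psmd1 (3112 bases) had log2 fold changes below 0 as fitted. Psme3 (2664 bases) and Psmd9 lay above 0 as fitted, at 0.05 and 1.13.

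Control library 2 bore on the calls more than any other library. Without it, leaving 1 control that is assumed to vary like the other libraries, 2 members rose and none fell (27 and 0 at an unadjusted p under 0.05), against 0.657% and 1.23% of all 14612 genes tested then, whereas the medians were 0.85 in the core, 0.33 in the base and 0.37 in the lid. Those were Psmb1, at 1.10, and Psmb5, at 1.20 (edgeR adjusted p = 0.0483 for each), and Psma2 and Psmd5 did not pass, at 0.85 and 0.50 (edgeR adjusted p = 0.0793 and 0.161). Without irradiated library 1 or 2 the members that rose numbered 12 and 10, against 6.08% and 4.94% of all genes, and none fell, against 6.58% and 6.01%. Psme4 did not pass without control library 2, irradiated library 1 or irradiated library 2 (edgeR adjusted p = 0.222, 0.104 and 0.12).

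Of 30 genes around the proteasome, which are no members, 28 were tested, 7 rose, 2 fell and 19 did not pass, where 12.7% and 13.0% of all genes rose and fell. With the length offset 1 rose (Sem1) and 1 fell, near the 2.7% and 2.04% of all genes. Among direct partners, Sem1, the smallest lid subunit, had 23.1 and 29.2 CPM in control and 71.1, 106 and 53.3 CPM in irradiated libraries (log2 1.56 ± 0.29, edgeR adjusted p = 0.0108, and 1.01 ± 0.21 with the offset, adjusted p = 0.0395). Pomp, the chaperone that completes the core, had 19.7 and 35.7 CPM in control and 61.6, 76.0 and 52.3 CPM in irradiated libraries (log2 1.19 ± 0.27, edgeR adjusted p = 0.0186, and 0.73 ± 0.19 with the offset, adjusted p = 0.0639). The ubiquitin receptor Adrm1 had 68.7 and 85.5 CPM in control and 172, 137 and 116 CPM in irradiated libraries (log2 0.88 ± 0.20, edgeR adjusted p = 0.0190, and 0.38 ± 0.18 with the offset, adjusted p = 0.201). The deubiquitinase Usp14 did not differ by the test (log2 0.01 ± 0.13, edgeR adjusted p = 0.952). Ecpas, which tethers core and regulatory particle and whose transcript has 7045 bases, had 285 and 209 CPM in control and 130.0, 123 and 154 CPM in irradiated libraries (log2 -0.86 ± 0.18, edgeR adjusted p = 0.0143), and lay at -0.21 ± 0.13 with the offset (adjusted p = 0.332).

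The transcription factors known to drive proteasome genes did not pass the test. Nfe2l1 had 157 and 146 CPM in control and 132, 112 and 132 CPM in irradiated libraries (log2 -0.27 ± 0.15, edgeR adjusted p = 0.197). Nfe2l2 had 19.1 and 32.0 CPM in control and 31.8, 35.2 and 35.9 CPM in irradiated libraries, which overlap (log2 0.42 ± 0.23, edgeR adjusted p = 0.198). Ddi2, the protease that activates Nfe2l1, had 973 and 786 CPM in control and 662, 515 and 639 CPM in irradiated libraries (log2 -0.54 ± 0.18, edgeR adjusted p = 0.0586). Nfe2l1 is controlled mainly through its protein, which RNA levels do not show. Of the 11 regulators and shuttle factors, Ufd1 rose (log2 0.76 ± 0.21, edgeR adjusted p = 0.0316, and 0.46 ± 0.17 with the offset, adjusted p = 0.127) and Ubqln2 fell (log2 -0.61 ± 0.15, edgeR adjusted p = 0.0225, and -0.58 ± 0.15 with the offset, adjusted p = 0.0584). Of the 5 genes for ubiquitin supply 3 rose, and the ubiquitin-activating enzyme Uba1 lay at -0.36 ± 0.16 (edgeR adjusted p = 0.121).

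Near-identical copies could share reads with a few members. Psma3 is identical to the processed pseudogene Gm13835 over 665 bases, and that copy had 240 and 560 reads in control and 532, 710 and 556 reads in irradiated libraries. Copies of Psmb5 (Gm3375) and Psmd11 (Gm14048), with 98.9% and 98.0% identity, had 25 to 76 and 16 to 72 reads. The Psma3 values are uncertain for this reason and because 36.5% to 51.7% of its reads in each library were assigned to transcripts annotated as noncoding.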

How the data were processed

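Bulk RNA sequencing of KP1 cells in culture gave 5 libraries, 2 control and 3 irradiated, grouped by the treatment label. The authors quantified reads against mm10 with Salmon (0.8.2 in the submitters' processing notes) at default settings, and deposited for each transcript estimated counts of reads, not scaled for depth. The authors also deposited TPM, Salmon's abundance scaled for length and library total, and each transcript's length and effective length in bases. The annotation release they used is not given in the sources used here. Their notes also name DESeq2 1.22.2.

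Transcripts were matched without version suffix to GENCODE M21 (GRCm38), 112841 of 113116 (99.76%), carrying 99.9% to 99.92% of reads, and summed to 35084 gene symbols. Estimated counts were rounded to whole numbers. Irradiated and control libraries were compared with edgeR 4.0.16 in R 4.3.3 (filterByExpr, TMM, quasi-likelihood, Benjamini-Hochberg over all genes tested), with a common dispersion of 0.0538. CPM used the same TMM factors, ± after a log2 fold change is edgeR's standard error, and 3 reads were taken as a detection floor, which covers counting error only. The length offset was a spline of 5 degrees of freedom on log2 length of each gene's most-read transcript, fitted per library. Alternatives were other normalizations and filters, DESeq2 1.42.0, limma 3.58.1 on log2(TPM + 1) with genes of mean TPM of 1 or more, GC and effective length offsets, a replicate block and leaving out each library. The scripts were tested on simulated data. Near copies were sought with blastn 2.17.0 (95% identity over 80% of the shorter transcript). Python 3.11.15, pandas 2.3.3, numpy 2.4.6 and matplotlib 3.10.9 made tables and plots.

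The members and lists were chosen with earlier results of these data known. Genes named were, by rule, all activators, chaperones, the inhibitor and Psmc3ip, the 2 highest and 2 lowest of each ring, base and lid, the catalytic subunits, Psmd14, Psmd4, members not tested, lower or past the fold threshold, and 15 associated genes, namely Nfe2l1, Nfe2l2, Ddi2, Pomp, Adrm1, Sem1, Usp14, the immunoproteasome subunits and the highest and lowest of each list. Some genes of the fixed lists enter the counts but are not reported here by name. Others are said to be named after their values were seen, or appear with their level, promoter or length. The control libraries carry the numbers 2 and 3 and the irradiated libraries 1 to 3, but no label says that a number marks a shared batch.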

Additional observations from a re-analysis of the deposited data

How the results depend on the processing

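Of 46 genes named by rule and tested, 26 were called by edgeR, and 4 of these (Psma4, Psmc3ip, Psmd7 and Psme4) changed direction under some length-offset fit. Psmb2, named outside that rule, was also called (log2 0.64) and lay at -0.06 with the length offset. Of the 23 alternatives run, the crossed block, the offset on read-weighted length and the offset with 1 control left out were chosen after seeing the data. Length moved with the groups in all 5 libraries, 2 controls limit the spread that can be estimated, and leaving out a control leaves 1 that is assumed to vary like the others. Where a value moved, the cause was not tested, beyond what the alternative itself removes.

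Members higher numbered 23 as reported, 3 with the length offset, 3 with it on read-weighted length, 0 and 3 with it and without control library 2 or 3, 10 by limma on log2(TPM + 1) or log2(TPM + 0.1) and 2 by limma with no filter, and 2 (without control library 2) to 24 (without irradiated library 3) with 1 library left out. Members lower numbered 1 as reported, 2 (Psmd1 and Psme4) by DESeq2, with no filter on low counts, with protein-coding transcripts summed and by limma at either pseudocount, and 0 by limma with no filter and with a GC offset, the length offset, its read-weighted form or without control library 2 under it, and 0 to 2 with 1 library left out. Members past the fold threshold numbered 0 as reported, 1 (Psmg3) with effective length offsets, and 0 to 1 with 1 library left out.

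Associated genes higher numbered 7 as reported, 1 with either form of the length offset, 0 and 3 with it and without control library 2 or 3, 3 by limma at either pseudocount, 0 by limma with no filter, and 1 to 8 with 1 library left out. Associated genes lower numbered 2 as reported, 1 with the length offset, 0 on read-weighted length, 0 and 1 without control library 2 or 3 under it, 5 by limma at either pseudocount, 1 by limma with no filter, and 0 to 3 with 1 library left out.

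The median log2 fold change of the core was 0.81 as reported, 0.19 with the length offset, 0.18 on read-weighted length, 0.45 and 0.06 with the offset and without control library 2 or 3, 0.52 by limma at either pseudocount, 0.48 by limma with no filter, and 0.73 to 0.94 with 1 library left out. The median of the base was 0.21 as reported, 0.27 with upper quartile normalization, 0.26 with no filter, 0.17 with a GC offset, -0.16 with the length offset, -0.15 on read-weighted length, 0.02 and -0.29 with the offset and without control library 2 or 3, -0.16 by limma in all 3 forms, and 0.20 to 0.33 with 1 library left out. The median of the lid was 0.30 as reported, -0.08 with either form of the length offset, 0.12 and -0.14 with it and without control library 2 or 3, -0.08 by limma in all 3 forms, and 0.27 to 0.37 with 1 library left out. The median of the activators was 0.52 as reported, 0.13 with the length offset, 0.15 on read-weighted length, 0.30 and 0.12 with the offset and without control library 2 or 3, 0.10 or 0.11 by limma, and 0.41 to 0.59 with 1 library left out.

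Libraries 2 and 3 exist in both groups. In each group the difference of library 2 minus library 3 in log2 CPM was taken. Across genes the differences of the 2 groups had a correlation of -0.202, so the numbers were not taken as pairs. With the replicate number as a block, 8 members rose, 0 fell and 1 (Psmg3) passed the fold threshold, 3 associated genes rose and 0 fell, and the base median was 0.26. With the block and the length offset 0 members and 0 associated genes rose or fell, with medians of 0.21, -0.16, -0.10 and 0.20 in core, base, lid and activators. When irradiated library 2 was instead paired with control library 3 and irradiated library 3 with control library 2, 31 members were higher and 2 lower, 1 passed the fold threshold, and 10 associated genes were higher and 4 lower.

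Among the genes named by rule, directions changed as follows on the log2 scale. With the length offset Ddi2 lay at 0.34, Nfe2l1 0.03, Psma4 -0.13, Psmb6 -0.16, Psmc4 -0.08, Psmc5 -0.12, Psmd14 -0.05, Psmd3 -0.11, Psmd4 -0.23, Psme3 -0.04 and Usp14 -0.17. With the block as well, Ddi2 lay at 0.26, Psma4 -0.10, Psmb6 -0.17, Psmc3ip -0.02, Psmc4 and Psmc5 -0.09, Psmd14 -0.06, Psmd3 -0.15, Psmd4 -0.19, Psmd7 -0.04, Psme4 0.01 and Usp14 -0.18. On read-weighted length Ddi2 lay at 0.23, Psma4 -0.14, Psmb10 -0.02, Psmb6 -0.18, Psmc4 -0.08, Psmc5 -0.12, Psmd14 -0.06, Psmd3 -0.10, Psmd4 -0.22, Psme3 -0.04, Psme4 0.04 and Usp14 -0.19. With the offset and without control library 2, Ddi2 lay at 0.33, Nfe2l1 0.08, Psmc5 -0.03, Psmd2 0.02, Psme3 -0.14, Psme4 0.09 and Usp14 -0.08. With it and without control library 3, Ddi2 lay at 0.36, Nfe2l1 0.02, Psma4 -0.14, Psmb6 -0.30, Psmc4 -0.08, Psmc5 -0.10, Psmd14 -0.26, Psmd3 -0.23, Psmd4 -0.34 and Usp14 -0.21. By limma in all 3 forms Psmd14 lay at -0.01, Psmd3 -0.14, Psmf1 -0.07, Psme3 -0.52 or -0.53 and Usp14 -0.34 or -0.35. Psmd3 lay at -0.16 with a GC offset and Psme3 at -0.18 with effective length offsets. Usp14, at 0.01 as fitted, lay at 0.00 with RLE normalization or effective length offsets and at -0.01 with protein-coding transcripts summed. With 1 library left out Psmd11 ranged from -0.33 to 0.02, Psmd2 from -0.21 to 0.00 and Psme3 from -0.11 to 0.27.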

Other observations

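Some members shifted among their own transcripts, as Salmon assigned the reads. For the assembly chaperone Psmg4, a coding transcript of 474 bases had 6 and 61 estimated reads in control libraries 2 and 3 and 193, 164 and 170 in irradiated libraries 1 to 3, which was 2.69% and 25.9% of the gene's reads against 38.9%, 32.4% and 37.6%. Its longer transcript of 555 bases had 235 and 173 reads in control and 303, 342 and 282 in irradiated libraries. For the lid subunit Psmd13, a transcript annotated as a target of nonsense-mediated decay had 541 and 476 reads in control and 261, 92 and 388 in irradiated libraries, or 17.9% and 17.7% of the gene against 7.10%, 3.37% and 10.9%. In both, the irradiated libraries did not overlap the controls. These transcripts were singled out after their values were seen and were not tested, and the assignment of reads between overlapping transcripts is an estimate. Of 44 members with at least 100 reads in every library, 27 had under 5% of reads in noncoding transcripts in every library, and 2 (Psma3 and Psmc3ip) had over 10% in every library.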
